A study of Mus musculus with 9 samples.

Results

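Chemokine genes were followed across 3 groups of mouse T cells cultured in T helper media. The 7 genes are Ccl3, Ccl4, Ccl5, Cxcl10, Cxcl9, Xcl1 and Ccl1, taken by their symbols from a table of 22017 genes. All 7 are listed there, and 6 reached the level needed for a test.

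Messenger RNA was sequenced in 9 libraries of cells grown from naive T cells of wild-type C57BL/6 spleens, 3 in each group. Th17-1 cells (Th17-derived Th1) were first activated for 3 days in a Th17 medium with TGF-beta (1 ng/mL), IL-6 (20 ng/mL) and IL-1beta (10 ng/mL), and on day 7 were activated again in a Th1 medium with IL-12 (10 ng/mL). Th1-1 cells were in the Th1 medium at each activation, and Th17-17 cells in the Th17 medium at each. Blocking antibodies were added too, to IL-4 in both media and to IL-12 and interferon-gamma in the Th17 medium. The first activation of all cells used anti-CD3 at 5 ug/mL and anti-CD28 at 1 ug/mL. All cells received IL-2 (100 U/mL) from day 5, the second activation used anti-CD3 and anti-CD28 at 0.05 ug/mL each, and RNA was taken on day 10. Th17-1 and Th1-1 cells differ in the first medium and share the last one. Th17-1 and Th17-17 cells share the first medium and differ in the last one, and Th1-1 and Th17-17 cells differ in both. Between Th17-1 or Th1-1 and Th17-17 cells, the kind of cell and the last medium cannot be told apart. These are cells polarized in culture, the labels do not name a CD4 selection or say that replicates came from separate animals or cultures, and p-values therefore measure only the spread between these samples.

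Chemokines are small secreted proteins that steer leukocytes through receptors coupled to G proteins, and their families are named for the spacing of the first cysteines. CCL3, CCL4 and CCL5 attract monocytes and effector T cells, CXCL9 and CXCL10 attract cells that carry CXCR3, XCL1 attracts dendritic cells that carry XCR1, and CCL1 is the ligand of CCR8. In T helper cells CCL3, CCL4 and CCL5 are known as products of activated Th1 and cytotoxic cells, and CXCL9 and CXCL10 as genes induced by interferon-gamma.

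The defining T cell markers Cd3d, Cd3e, Cd3g, Cd4, Cd5 and Cd28 were present in every library, summing to 686 to 802 FPKM in Th17-1, 649 to 851 FPKM in Th1-1 and 711 to 832 FPKM in Th17-17 cells. FPKM counts fragments per kilobase of transcript, scaled to the mapped fragments of the library, so levels of different genes can be set side by side per length. Replicate 3 of each group stood apart by its CD8 genes. Cd8a was at 104 FPKM in Th17-1, 117 in Th1-1 and 141 in Th17-17 replicate 3, whereas the other 6 libraries had 15.3 to 54.9 FPKM. In replicate 3 Cd4 was below Cd8a in each group, at 96.9 FPKM in Th17-1, 57.1 in Th1-1 and 52.9 in Th17-17. Cd4 was above Cd8a in the other 6 libraries, at 81.1 to 124 FPKM. Macrophage and monocyte markers summed to 3.62 to 6.88 FPKM in Th17-1, 3.78 to 11.95 FPKM in Th1-1 and 1.45 to 2.92 FPKM in Th17-17 cells, with 1 of 7 reaching 1 FPKM (Cd68) and Fcgr1 at 0 throughout. Dendritic cell markers summed to 40.5 to 56.4 FPKM in Th17-1, 34.6 to 44.5 FPKM in Th1-1 and 11.5 to 23.4 FPKM in Th17-17 cells. Of these, 7 of 9 reached 1 FPKM, led by Cd74 and Batf3, which T cells also express, and Flt3 was at 0 throughout. NK cell markers summed to 39.8 to 74.6 FPKM in Th17-1, 63.4 to 98.9 FPKM in Th1-1 and 51.0 to 100.7 FPKM in Th17-17 cells, 4 of 7 reaching 1 FPKM, with Klrk1, which CD8 T cells also carry, the highest and Klra4 at 0 throughout. B cell markers, 2 of 5 reaching 1 FPKM, stayed within 0.844 to 4.01 FPKM and the gamma-delta markers Sox13 and Blk within 0 to 2.05 FPKM in sum. Neutrophil markers summed to 9.38 to 34.7 FPKM in Th17-1, 2.27 to 3.05 FPKM in Th1-1 and 0.0761 to 0.745 FPKM in Th17-17 cells, nearly all of it Ly6g, while S100a8 and S100a9 were at 0 throughout. The part of these cells in the chemokine results was not tested beyond the fits named below. In bulk RNA, fewer cells that make a transcript and less transcript per cell cannot be told apart.

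The make-up of the chemokine message differed between groups. Summed over 38 ligand genes (the 7 and 31 others), chemokine message reached 353 ± 25.1 FPKM in Th17-1, 692 ± 228 FPKM in Th1-1 and 105 ± 15.0 FPKM in Th17-17 libraries (mean and SD throughout, n = 3 per group). The 7 genes made up 98.0% to 98.1% of that sum in Th17-1, 98.8% to 99.4% in Th1-1 and 94.9% to 97.7% in Th17-17 cells. In Th1-1 cells Ccl5 held 56.9% ± 11.6 of it, from 43.6% in replicate 2 to 64.4% in replicate 1. In Th17-17 cells Xcl1 held 55.1% ± 7.75. In Th17-1 cells Cxcl10 led in replicates 1 and 2 and Ccl5 in replicate 3, and no gene held over 44.1% in any library: Ccl5 held 30.6% ± 11.8, Cxcl10 26.2% ± 9.92, Ccl4 21.2% ± 0.212 and Ccl3 17.4% ± 1.70, while Xcl1 held 2.37% ± 0.898. The Ccl5 shares of Th17-1 (22.5% to 44.1%) overlapped those of Th1-1, and differences in shares were not tested. Depth cannot be recovered from these values, so counting intervals are not given.

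**Figure D1:**
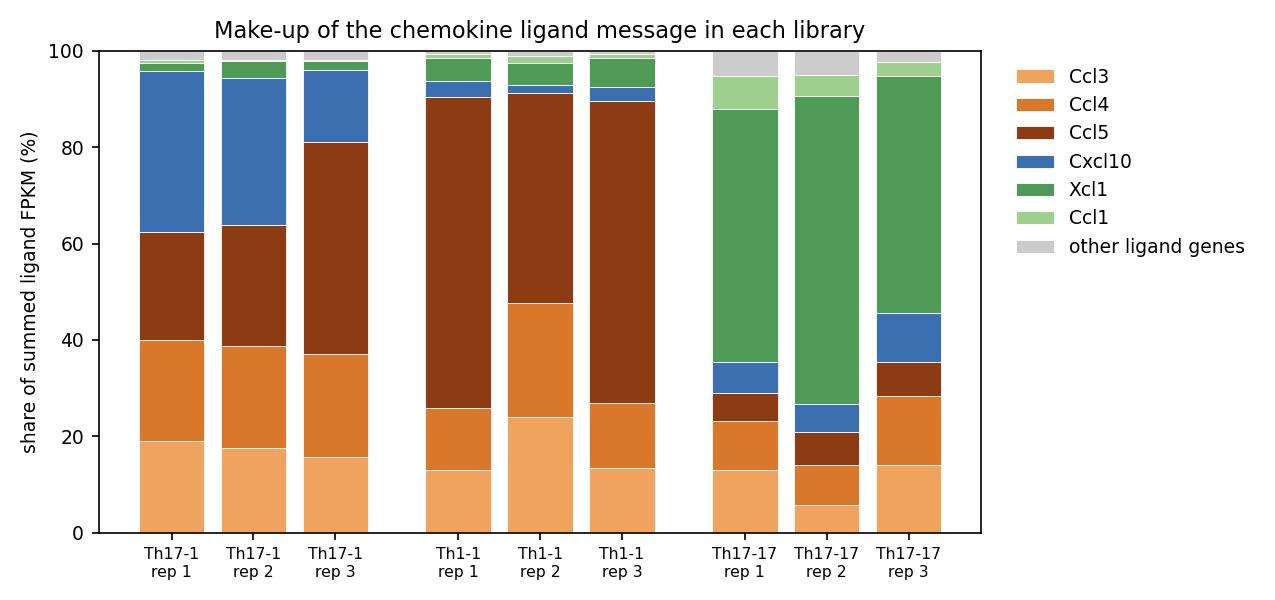
Share (%) of the summed FPKM of 38 chemokine ligand genes held by each gene, 1 bar per library. Xcl1 fills 1.75% to 3.40% of the bar in the 3 Th17-1 libraries and 49.1% to 63.9% in the 3 Th17-17 libraries, and Ccl5 fills 43.6% to 64.4% in Th1-1.

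Against Th17-17 cells, Th17-1 cells had 4 of the 6 tested chemokine genes higher and 2 lower. Ccl3, Ccl4, Ccl5 and Cxcl10 rose, and Xcl1 and Ccl1 fell. Of all 10538 genes tested, 15.9% were called in this comparison, 6.43% higher and 9.49% lower. The median of the 6 was 2.52 on the log2(FPKM + 1) scale, and that of all genes -0.12, a shift that median-ratio scaling took to -0.01. Against Th1-1 cells, 1 of the 6 was higher in Th17-1 (Cxcl10) and 3 were lower (Ccl5, Xcl1, Ccl1), where 10.5% of all genes were called, 5.67% higher and 4.81% lower. The median of the 6 was -1.32 and that of all genes 0.05. In Th1-1 against Th17-17, 3 were higher (Ccl3, Ccl4, Ccl5) and 0 lower, where 42.9% of all genes were called, 14.0% higher and 28.9% lower, with medians of 2.09 for the 6 and -0.17 for all genes. Scaling moved the balance of calls over all genes: the higher ones were 40.4% of calls in Th17-1 against Th17-17 and 32.7% in Th1-1 against Th17-17 as deposited, and 63.1% and 53.9% with median-ratio scaling. It changed no call of the 6. At an unadjusted p below 0.05, 1 of the 6 was lower in Th1-1 than in Th17-17 (Xcl1), and Xcl1 also passed the adjusted threshold when Th1-1 replicate 3 was left out. All calls are from limma with Benjamini-Hochberg adjustment over all genes at 0.05. The comparisons share groups, so they are not independent of each other. The members were chosen with earlier results of these data known, so their counts beside those of all genes are a description and not a test.

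**Figure D2:**
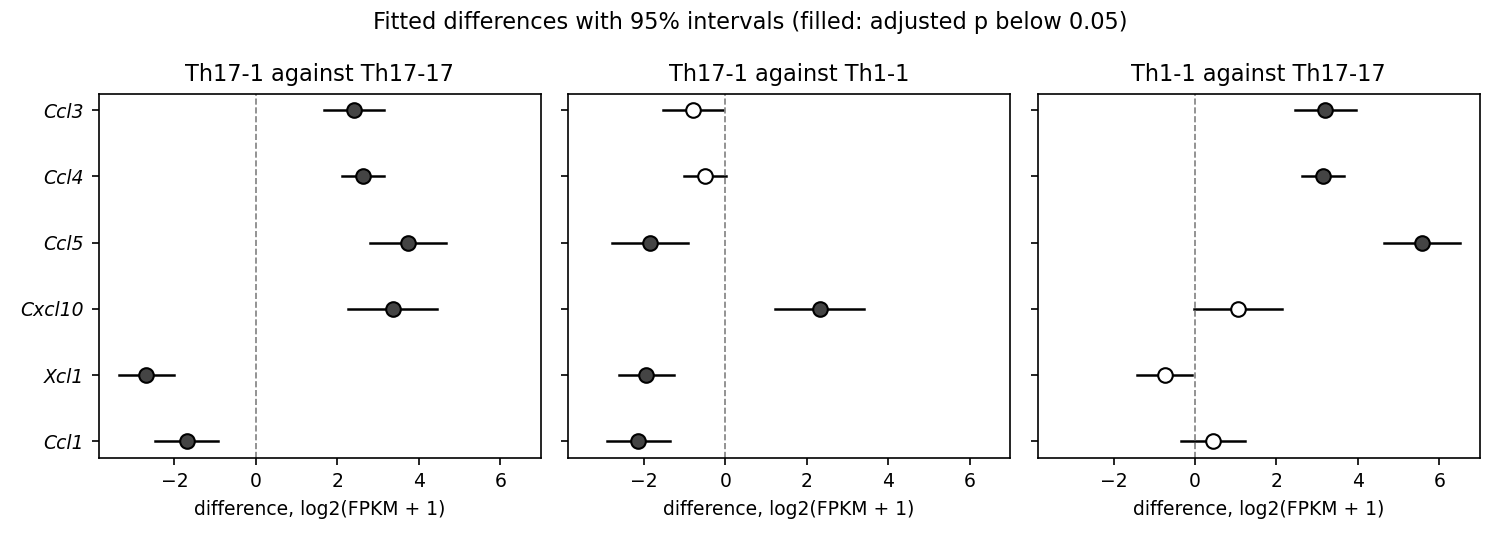
Difference in log2(FPKM + 1) with its 95% interval for the 6 tested genes in 3 comparisons, filled where the limma adjusted p was below 0.05. Xcl1 and Ccl1 lie left of 0 in Th17-1 against each other group, and Cxcl10 lies right of 0 in each.

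The inflammatory CC chemokine genes Ccl3 and Ccl4 (MIP-1alpha and MIP-1beta) lie 13228 bases apart on chromosome 11 of GRCm38, the mm10 build, Ccl3 at 83647844 to 83649355 on the minus strand and Ccl4 at 83662584 to 83664683 on the plus strand. Ccl3 was at 66.6, 58.0 and 59.3 FPKM in Th17-1 replicates 1 to 3, at 102, 103 and 115 FPKM in Th1-1, and at 14.2, 5.07 and 16.5 FPKM in Th17-17. Ccl4 was at 73.8, 69.7 and 81.4 FPKM in Th17-1, at 103, 102 and 115 FPKM in Th1-1, and at 11.01, 7.42 and 17.0 FPKM in Th17-17. For each gene the order was Th1-1, Th17-1, Th17-17, with no overlap between groups. Ccl3 was 5.30-fold higher in Th17-1 than in Th17-17 (log2 difference 2.41 ± 0.33 SE, limma adjusted p = 0.00196), and Ccl4 6.21-fold (2.63 ± 0.23, adjusted p = 0.000205). In Th1-1 against Th17-17 the folds were 9.18 for Ccl3 (adjusted p = 0.000205) and 8.78 for Ccl4 (adjusted p = 3.54e-05). All folds are on the log2(FPKM + 1) scale.

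In Th17-1 against Th1-1, Ccl3 differed by -0.79 (95% interval -1.54 to -0.05, adjusted p = 0.164) and Ccl4 by -0.50 (-1.01 to 0.01, adjusted p = 0.199), neither past the threshold. The shared estimate of spread takes in Th17-17 replicate 2, whose Ccl3 of 5.07 FPKM lay below the rest of its group. Without that library Ccl3 passed (adjusted p = 0.00597), and in a fit of Th17-1 and Th1-1 alone Ccl3 (adjusted p = 0.00967) and Ccl4 (adjusted p = 0.0329) passed. With the Th17-17 mean set to 0 and the Th1-1 mean to 1 in log2(FPKM + 1), Th17-1 stood at 0.75 for Ccl3 (0.73 to 0.79 over its 3 libraries) and at 0.84 for Ccl4 (0.81 to 0.88). In FPKM these positions were 0.52 for Ccl3 and 0.67 for Ccl4. The ratio of Ccl3 to Ccl4 within a library was 0.903, 0.832 and 0.728 in Th17-1, against 0.998, 1.01 and 1.01 in Th1-1 cells. These do not overlap, and the exact permutation p of 0.1 (two-sided, 0.18 adjusted over 9 such tests) is the smallest that 3 against 3 can give. Ccl3 and Ccl4 are related in sequence, and how reads that align to more than 1 gene were assigned is not given in the sources used here.

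Ccl5 (RANTES), an inflammatory CC chemokine gene whose product binds CCR1, lies 117325 bases from Ccl3 (chromosome 11, 83525778 to 83530518, minus strand) and had the widest range of the 7 in FPKM. It was at 78.7, 83.2 and 167 FPKM in Th17-1, at 509, 188 and 536 FPKM in Th1-1, and at 6.35, 6.05 and 8.47 FPKM in Th17-17. The groups do not overlap, but Th17-1 replicate 3 lay close to Th1-1 replicate 2. By mean FPKM Ccl5 ranked 539 of 22017 genes in Th17-1, 132 in Th1-1 and 7411 in Th17-17. It was 13.2-fold higher in Th17-1 than in Th17-17 (log2 difference 3.72 ± 0.41 SE, limma adjusted p = 0.000741) and 47.3-fold higher in Th1-1 than in Th17-17 (5.56 ± 0.41, adjusted p = 4.06e-05). Against Th1-1, Ccl5 was lower in Th17-1 by a log2 difference of -1.84 (95% interval -2.77 to -0.91, adjusted p = 0.0252).

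That last call rested on single libraries: the adjusted p was 0.0801 without Th1-1 replicate 1, 0.0986 without Th1-1 replicate 3, 0.101 without Th17-1 replicate 1 and 0.106 without Th17-1 replicate 2, with log2 differences of -1.58 to -1.69. In log2(FPKM + 1), Th17-1 stood at 0.67 of the way from Th17-17 to Th1-1 (0.60 to 0.79 over its libraries), and in FPKM at 0.25 (0.18 to 0.40). Within a library, Ccl5 was 1.07, 1.19 and 2.06 times Ccl4 in Th17-1, 4.96, 1.84 and 4.68 times in Th1-1, and 0.577, 0.815 and 0.499 times in Th17-17. The ratio in Th17-1 lay above all of Th17-17 (exact permutation p = 0.1, the smallest possible, 0.18 adjusted) and overlapped that of Th1-1 (exact permutation p = 0.2, 0.3 adjusted). Th1-1 replicate 2 was the lowest Th1-1 library for Ccl5, as it was for Cxcl10, Xcl1 and Ccl1. Ccl5 was highest in replicate 3 of each group, the libraries with the most Cd8a. With the mean of Cd8a and Cd8b1 as a covariate, the difference from Th17-17 was 3.93 (limma adjusted p = 0.000515) and that from Th1-1 was -1.93 (adjusted p = 0.0107). In replicates 1 and 2 alone they were 3.51 (adjusted p = 0.00738) and -1.92 (adjusted p = 0.0576).

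**Figure D3:**
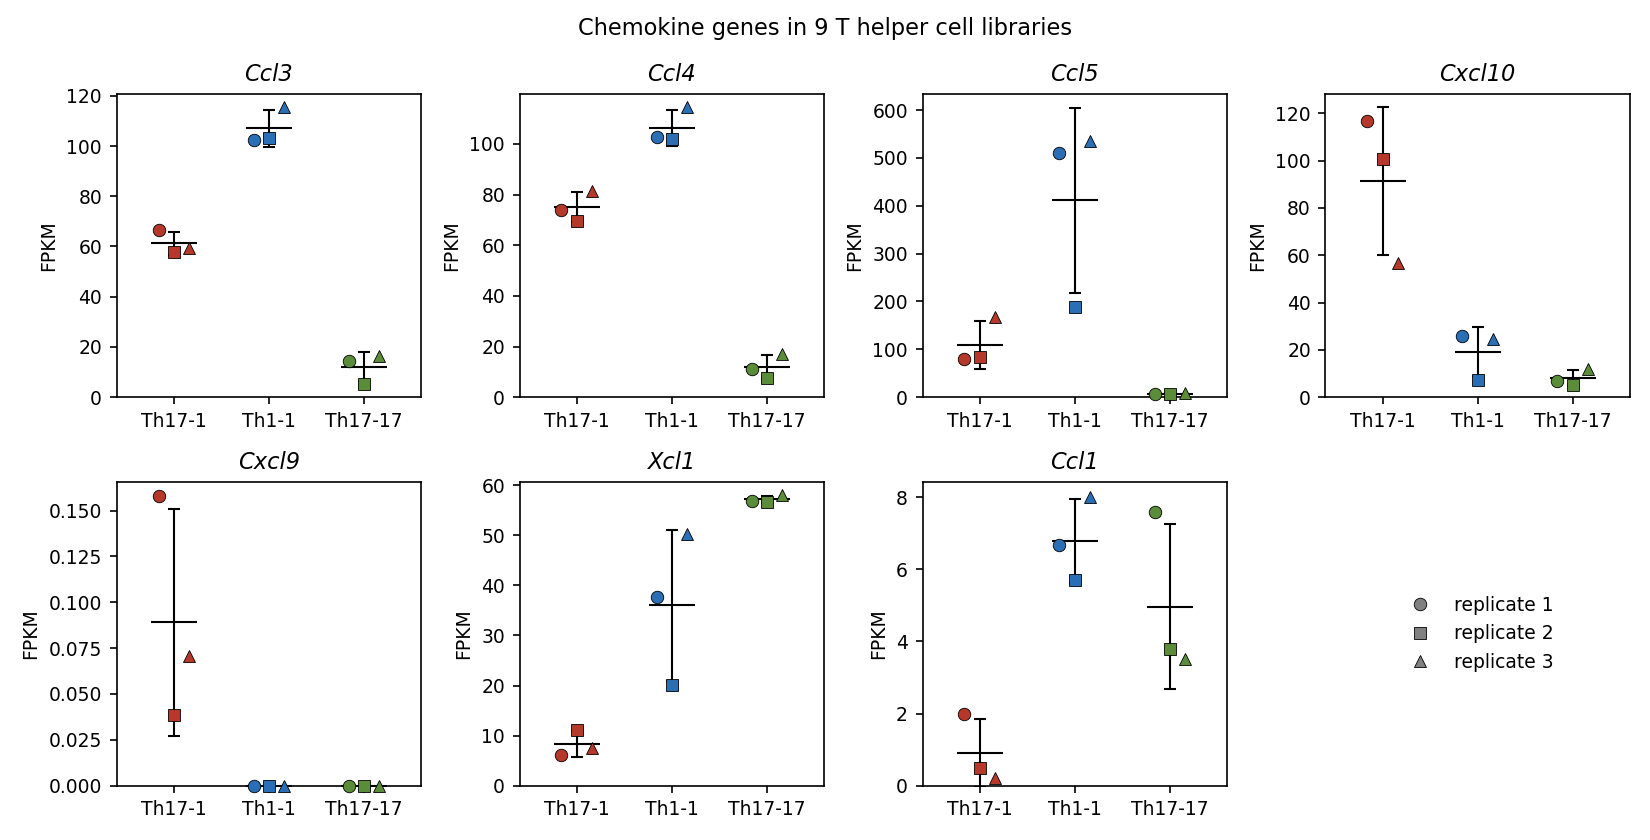
FPKM of each chemokine gene by library (points, shaped by replicate number), with the group mean (horizontal line) and SD (bars, cut at 0), each axis on its own scale. Cxcl10 is highest in the 3 Th17-1 libraries (56.5 to 117), Xcl1 in the 3 Th17-17 libraries (56.7 to 58.0), and Cxcl9 does not exceed 0.158 FPKM.

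Cxcl10 (IP-10), a CXCR3 ligand induced by interferons, was the member that was higher in Th17-1 cells than in each of the other groups. It lies on chromosome 5 (92346638 to 92348889, minus strand) between Cxcl9 (92321347 to 92328079, minus strand), 18558 bases away, and Cxcl11, 10654 bases away. The RefSeq sequences before the starts of Cxcl10 and Cxcl9 (GRCm38.p6) are shown because these neighbors, known for the same receptor and the same inducer, differed in level. Each line holds the 250 bases before the start, 5′ to 3′ on the minus strand, and capitals mark letters that match any of 6 motifs.
Cxcl10, chr5:92348890-92349139: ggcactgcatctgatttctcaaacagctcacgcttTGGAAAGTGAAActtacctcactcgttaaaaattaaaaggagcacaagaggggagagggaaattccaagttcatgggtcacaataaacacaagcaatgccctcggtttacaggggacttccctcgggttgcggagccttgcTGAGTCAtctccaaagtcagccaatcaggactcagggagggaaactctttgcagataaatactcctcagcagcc
Cxcl9, chr5:92328080-92328329: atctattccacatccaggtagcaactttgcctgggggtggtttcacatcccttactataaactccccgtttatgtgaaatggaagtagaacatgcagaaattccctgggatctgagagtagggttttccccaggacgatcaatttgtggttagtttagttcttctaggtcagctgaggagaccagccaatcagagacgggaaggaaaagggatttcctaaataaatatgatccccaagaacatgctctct
The motifs, searched on both strands, were GAAA, any 2 bases and GAAA (the core of interferon-stimulated response elements, in 3.04% of 27025 promoter windows of this length), TTCNNNGAA (STAT sites, 7.18%), GGG, any 2 bases and TTTCC (NF-kappaB, 1.4%), TCACACC (a T-box half-site, 3.31%), TGANTCA (AP-1, 6.87%) and TGGAAA (the NFAT core, 18.7%). Cxcl10 holds the interferon element core at -213 to -204, overlapped by TGGAAA at -215 to -210, and TGANTCA at -74 to -68, counted back from the start. These 250 bases of Cxcl9 hold none of the 6 spellings. Such matches are letters only, and no binding was measured. Variant spellings of these elements were not searched, so a window without a match can still hold such an element.

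Cxcl10 was at 117, 101 and 56.5 FPKM in Th17-1, at 25.9, 7.19 and 24.6 FPKM in Th1-1, and at 6.97, 5.21 and 11.96 FPKM in Th17-17. All 3 Th17-1 libraries lay above every other library, and Th1-1 overlapped Th17-17 through Th1-1 replicate 2. By mean FPKM it ranked 683 of 22017 in Th17-1, 3768 in Th1-1 and 7009 in Th17-17. It was 10.2-fold higher in Th17-1 than in Th17-17 (log2 difference 3.36 ± 0.48 SE, limma adjusted p = 0.0023) and 4.96-fold higher than in Th1-1 (2.31, 95% interval 1.23 to 3.39, adjusted p = 0.0186). The call against Th1-1 was lost without Th17-1 replicate 1 (2.10, adjusted p = 0.0788) or replicate 2 (2.21, adjusted p = 0.0804). Th1-1 against Th17-17 differed by 1.05 (-0.04 to 2.13, adjusted p = 0.106), and passed without Th1-1 replicate 2 (1.61, adjusted p = 0.00545). Relative to Ccl4 in the same library, Cxcl10 was at 1.58, 1.44 and 0.694 in Th17-1, against 0.253, 0.0705 and 0.215 in Th1-1 (exact permutation p = 0.1, the smallest possible, 0.18 adjusted).

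The other CXCR3 ligands were far lower. Cxcl9 (MIG) was at 0.158, 0.0384 and 0.0710 FPKM in Th17-1, and was listed at 0 in the 3 Th1-1 and the 3 Th17-17 libraries. It was too low for the test, and with no filter on low values the limma adjusted p was 0.0681 in Th17-1 against Th17-17 and 0.0842 in Th17-1 against Th1-1. Cxcl11 was at 1.05, 0.488 and 0.471 FPKM in Th17-1, at 0.0479, 0.130 and 0.0709 FPKM in Th1-1, and was listed at 0 in Th17-17. Art3, which overlaps Cxcl10 and Cxcl11 on the opposite strand, did not exceed 0.0651 FPKM in any library.

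Genes that make and relay interferon-gamma did not all move with Cxcl10. Ifng was at 975, 990 and 717 FPKM in Th17-1, at 1005, 2013 and 1137 FPKM in Th1-1, and at 19.9, 14.2 and 40.7 FPKM in Th17-17. Th1-1 replicate 2 thus had the most Ifng and the least Cxcl10 of its group. Ifngr2, the signaling chain of the receptor, was at 4.23 to 4.77 FPKM in Th17-1, at 0.232 to 0.750 FPKM in Th1-1 and at 11.3 to 16.6 FPKM in Th17-17. It was lower in Th17-1 than in Th17-17 (log2 difference -1.51, adjusted p = 0.000987) and higher than in Th1-1 (1.97, adjusted p = 0.000647).

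Of 13 interferon response regulators, 12 were tested. In Th17-1 against Th17-17, 8 rose, 1 fell and 3 missed the threshold, with a median log2 difference of 0.61, where 15.9% of all genes were called. Ifng (5.23) and Stat2 (0.83) were among those that rose. Without single libraries the higher genes numbered 2 to 4 in 5 of the fits (2 without Th17-1 replicate 2, Th17-17 replicate 1 or Th17-17 replicate 2, 3 without Th17-1 replicate 1, and 4 without Th17-1 replicate 3). In Th17-1 against Th1-1, 4 rose, 1 fell and 7 missed the threshold (median 0.38), where 10.5% of all genes were called, with Ifngr2, Socs3 (1.74) and Stat2 (0.57) among the higher ones and Ifngr1 (-0.70) the lower one. The call of Ifngr1 was lost without Th1-1 replicate 1 or 3 or Th17-1 replicate 1 or 2. Of the higher ones, Ifngr2 and Socs3 alone kept the call in the fits without Th1-1 replicate 3, without any 1 Th17-1 library and without Th17-17 replicate 1. In Th1-1 against Th17-17, 4 rose, 2 fell and 6 missed the threshold (median 0.18), a share near the 42.9% called among all genes. The lower ones were Ifngr2 (-3.48) and Socs3 (-1.60).

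**Figure D4:**
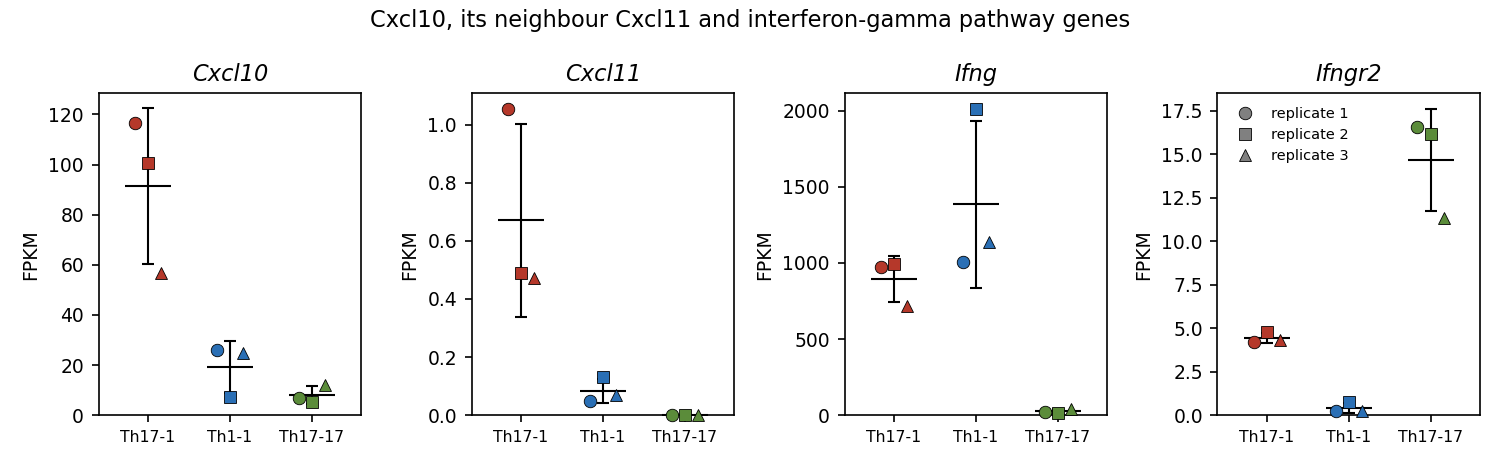
FPKM by library of Cxcl10, its neighbor Cxcl11 and the interferon-gamma pathway genes Ifng and Ifngr2, with group mean and SD, each axis on its own scale. Cxcl10 and Cxcl11 are highest in Th17-1, while Ifng is highest in Th1-1 replicate 2 and Ifngr2 in Th17-17.

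Xcl1 (lymphotactin), the ligand of the dendritic cell receptor XCR1, ran the other way. It lies on chromosome 1 (164931644 to 164935527, minus strand). Its RefSeq sequence is shown beside that of Ccl3, since Xcl1 fell and Ccl3 rose in Th17-1 against Th17-17.
Xcl1, chr1:164935523-164935772: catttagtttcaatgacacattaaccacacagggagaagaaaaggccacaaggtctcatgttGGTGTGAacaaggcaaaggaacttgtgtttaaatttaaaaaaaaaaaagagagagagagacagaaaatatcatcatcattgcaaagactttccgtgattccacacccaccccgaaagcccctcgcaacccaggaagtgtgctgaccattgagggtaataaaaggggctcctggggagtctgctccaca
Ccl3, chr11:83649379-83649628: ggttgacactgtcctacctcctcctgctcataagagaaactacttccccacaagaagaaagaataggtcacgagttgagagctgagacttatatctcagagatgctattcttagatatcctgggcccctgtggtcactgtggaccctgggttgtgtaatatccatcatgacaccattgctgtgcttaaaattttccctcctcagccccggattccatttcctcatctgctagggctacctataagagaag
Capitals mark the T-box half-site of the Xcl1 window, which reads on the strand opposite the printed one, at -188 to -182. The Ccl3 window holds none of the 6 spellings, and that of Ccl1 holds TGGAAA on its other strand at -116 to -111. Gm20743 overlaps Xcl1 on the opposite strand and was not analysed here, and whether counting used strand is not given in the sources used here.

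Xcl1 was at 6.15, 11.2 and 7.42 FPKM in Th17-1, at 37.6, 20.2 and 50.3 FPKM in Th1-1, and at 56.9, 56.7 and 58.0 FPKM in Th17-17. The 3 Th17-17 libraries lay close together and above all others, and the 3 Th17-1 libraries lay below all others. By mean FPKM Xcl1 ranked 6687 of 22017 in Th17-1, 2048 in Th1-1 and 1243 in Th17-17. It fell in Th17-1 by a log2 difference of -2.69 ± 0.30 SE against Th17-17 (limma adjusted p = 0.000741) and by -1.94 ± 0.30 against Th1-1 (adjusted p = 0.00579). Each of these calls held in all 9 fits without 1 library. In replicates 1 and 2 alone the difference from Th1-1 was -1.61 (adjusted p = 0.0548). Th1-1 against Th17-17 differed by -0.74 (95% interval -1.42 to -0.07, adjusted p = 0.0722), and passed without Th1-1 replicate 3 (-1.03, adjusted p = 0.0276), the Th1-1 library with the most Cd8a and the most Xcl1. Th17-1 replicate 3 had a like amount of Cd8a, and its Xcl1 of 7.42 FPKM lay between those of the other 2 Th17-1 libraries. With Cd8a and Cd8b1 as a covariate the differences in Th17-1 were -2.59 from Th17-17 (adjusted p = 0.00129) and -1.99 from Th1-1 (adjusted p = 0.00499).

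Ccl1 (TCA-3), a product of activated T cells, was the lowest of the tested members. Its gene in GENCODE spans 82176657 to 82305690 on the minus strand of chromosome 11, 1220087 bases from Ccl5. The RefSeq window searched for motifs, 82179813 to 82180062, lies inside that span, so the 2 annotations place the start differently. Ccl1 was at 1.97, 0.489 and 0.225 FPKM in Th17-1, at 6.66, 5.70 and 8.01 FPKM in Th1-1, and at 7.59, 3.78 and 3.52 FPKM in Th17-17. Every Th17-1 library lay below every other library, while Th1-1 and Th17-17 overlapped. It fell in Th17-1 by a log2 difference of -1.70 ± 0.345 SE against Th17-17 (limma adjusted p = 0.0116) and by -2.14 ± 0.345 against Th1-1 (adjusted p = 0.00667). In replicates 1 and 2 alone these were -1.61 (adjusted p = 0.0579) and -1.77 (adjusted p = 0.0604). Th1-1 against Th17-17 differed by 0.44 (95% interval -0.34 to 1.22, adjusted p = 0.326). At levels this near the added 1 FPKM, the log2 scale understates differences, and with 0.1 FPKM added the differences in Th17-1 were -2.70 against Th17-17 and -3.21 against Th1-1.

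Receptors of these chemokines were measured in the same cells. Ccr1, which binds CCL3 and CCL5, was at 0.576 to 1.35 FPKM in Th17-1, 0.820 to 1.22 FPKM in Th1-1 and 0.0256 to 0.0740 FPKM in Th17-17, too low for the test. Ackr2, a scavenger of such chemokines, did not exceed 0.0340 FPKM.

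Cxcr3, the receptor of CXCL9 and CXCL10, did not follow Cxcl10. It was at 10.2, 11.5 and 24.7 FPKM in Th17-1, at 68.0, 35.8 and 61.2 FPKM in Th1-1, and at 11.7, 14.6 and 24.8 FPKM in Th17-17. Th17-1 and Th17-17 overlapped, with a log2 difference of -0.18 (limma adjusted p = 0.771), whereas Th17-1 was lower than Th1-1 by a log2 difference of -1.82 (adjusted p = 0.0186). Without Th1-1 replicate 1 or 3, or Th17-1 replicate 1 or 2, that adjusted p was 0.0614 to 0.0848. Th1-1 was 3.13-fold above Th17-17 (adjusted p = 0.00814). Ccr8, the receptor of CCL1, was at 3.46, 3.06 and 1.09 FPKM in Th17-1, at 0.403, 1.86 and 0.618 FPKM in Th1-1, and at 26.9, 27.1 and 13.7 FPKM in Th17-17. It was lower in Th17-1 than in Th17-17 (log2 difference -2.75, adjusted p = 0.00202). Xcr1, a marker of cross-presenting dendritic cells, was low in all groups, at 1.06 to 2.64 FPKM in Th17-1, 2.81 to 3.79 FPKM in Th1-1 and 0.648 to 1.57 FPKM in Th17-17. By limma it was higher in Th1-1 than in Th17-17 (log2 difference 1.07, adjusted p = 0.00781). Th17-1 differed by 0.39 from Th17-17 (adjusted p = 0.287) and by -0.67 from Th1-1 (adjusted p = 0.113). With the CD8 covariate these became 0.55 (adjusted p = 0.0406) and -0.74 (adjusted p = 0.0154). Clec9a, another marker of cross-presenting dendritic cells, did not exceed 0.0184 FPKM, and Flt3 was at 0.

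**Figure D5:**
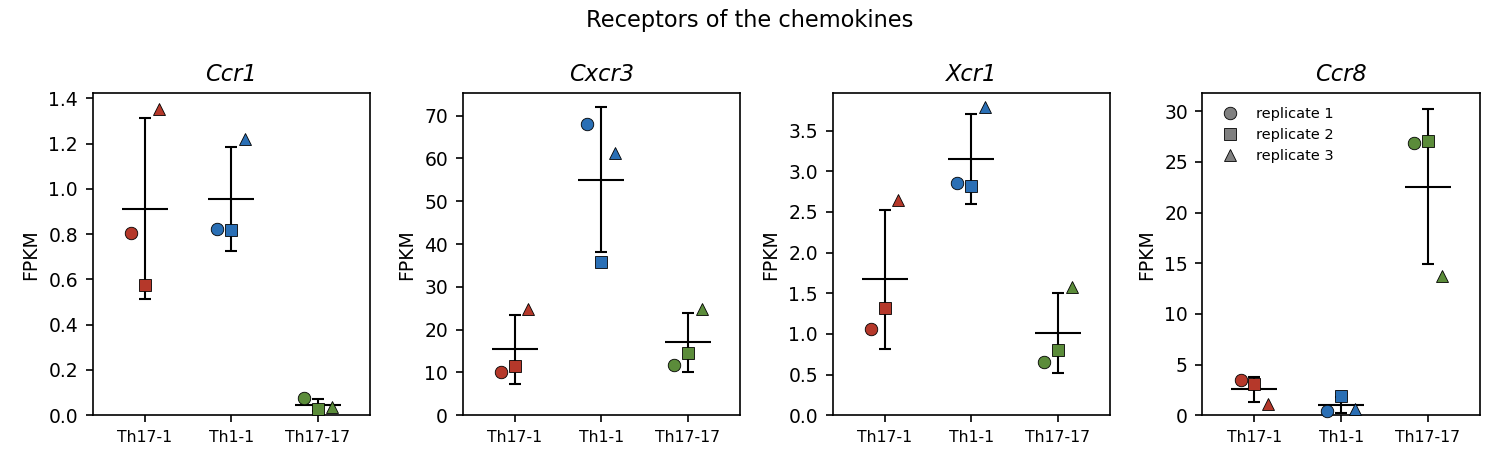
FPKM by library of the receptors Ccr1 (of CCL3 and CCL5), Cxcr3 (of CXCL9 and CXCL10), Xcr1 (of XCL1) and Ccr8 (of CCL1), with group mean and SD, each axis on its own scale. Cxcr3 is highest in Th1-1 and Ccr8 in Th17-17.

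Of 23 chemokine receptor genes, 14 were tested. In Th17-1 against Th17-17, 4 rose (Cxcr1, Cxcr2 and Ccrl2 among them), 2 fell (Ccr8, Cx3cr1) and 8 missed the threshold, with a median log2 difference of 0.50, where 15.9% of all genes were called. Without Th17-17 replicate 1 or 2, 2 were higher and 1 was lower, and without Th17-17 replicate 3 1 was lower. In Th17-1 against Th1-1, 4 were higher, led by Ccr7 (2.21) and Ccr6 (1.83), 1 was lower (Cxcr3) and 9 did not pass, with a median of 0.03, where 10.5% of all genes were called. At an unadjusted p below 0.05, 4 were lower, and by adjusted p 3 were lower with the CD8 covariate, 5 with array weights and 4 in replicates 1 and 2 alone. The higher ones numbered 2 without Th17-1 replicate 1 or 2, and the lower ones 0 to 3 over the fits without 1 library: 0 without Th1-1 replicate 1 or 3 or Th17-1 replicate 1 or 2, 2 without Th1-1 replicate 2, and 3 without Th17-1 replicate 3 or Th17-17 replicate 3. Of all 10538 genes in Th17-1 against Th1-1, array weights called 3419 higher and 2011 lower, against 597 and 507 without weights. The share of all genes at an unadjusted p was not counted. Ccr7, the lymph node homing receptor, averaged 140.0 ± 11.7 FPKM in Th17-1 and 30.2 ± 8.37 FPKM in Th1-1. In Th1-1 against Th17-17, 8 were higher, 5 were lower (3 without Th17-17 replicate 1 or 2) and 1 did not pass, with a median of 0.96, where 42.9% of all genes were called.

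Few other chemokine genes reached 1 FPKM. Of the 31 other ligand genes, 2 were tested, and 1 of these was higher and 0 lower in Th17-1 and in Th1-1 against Th17-17 (0 lower at an unadjusted limma p below 0.05 too). Of all genes tested, 15.9% were called in the first of these comparisons (6.43% higher) and 42.9% in the second (14.0% higher). With 2 genes tested, the count says little about the list. Ccl9 (MIP-1gamma), which lies in the same chromosome 11 family, was at 2.86, 2.14 and 2.68 FPKM in Th17-1, at 2.04, 1.68 and 2.51 FPKM in Th1-1, and at 0.0673, 0.119 and 0.0667 FPKM in Th17-17. It was higher in Th17-1 than in Th17-17 (log2 difference 1.71, limma adjusted p = 0.000157) and in Th1-1 than in Th17-17 (1.495, adjusted p = 0.000116), and differed by 0.22 in Th17-1 against Th1-1 (adjusted p = 0.362). Ccl25 did not pass in any of the 3 comparisons, at 1.36 to 3.57 FPKM over the 9 libraries. Ccl20, a CCR6 ligand known from Th17 cells, was at 0.306 to 0.671 FPKM in Th17-17 and was listed at 0 in the other 6 libraries. Ccr6 itself was at 2.14 to 4.04 FPKM in Th17-1, 0.0591 to 0.250 FPKM in Th1-1 and 2.25 to 2.26 FPKM in Th17-17.

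Of 21 regulators of T cell activation, all were tested. In Th17-1 against Th17-17, 8 rose, 2 fell and 11 missed the threshold, with a median log2 difference of 0.55, where 15.9% of all genes were called. The AP-1 gene Jun (2.16), the T-bet gene Tbx21 (1.82), Nfkb2 (1.204) and Junb (1.13) led, and Eomes (-1.88) and Runx3 (-0.45) were lower. The higher ones numbered 4 without Th17-17 replicate 1 and 5 without Th17-17 replicate 2, and Nfkb2 was among those lost (adjusted p = 0.0585 and 0.0602). The call of Runx3 was lost with median-ratio scaling (-0.33, adjusted p = 0.152) and without 7 of the 9 libraries (up to 0.156). In Th17-1 against Th1-1, Tbx21 was the 1 gene lower (-1.40, adjusted p = 0.0205, and 0.0639 to 0.0898 without Th1-1 replicate 1 or 3 or Th17-1 replicate 1 or 2), 0 were higher by limma and 20 did not pass, where 10.5% of all genes were called. At an unadjusted p below 0.05, 3 were higher and 5 lower. The lower ones by adjusted p numbered 4 with the CD8 covariate, 11 with array weights, 3 in replicates 1 and 2 alone, 2 with median-ratio scaling or quantile normalization, 3 without Th17-1 replicate 3 and 2 without Th1-1 replicate 2. They numbered 0 in the 4 fits that lost Tbx21. The higher ones numbered 4 with array weights, 1 with equal sums or quantile normalization, 1 without Th1-1 replicate 1 or Th17-17 replicate 3, and 2 without Th1-1 replicate 2. Over all 10538 genes in Th17-1 against Th1-1, array weights called 3419 higher and 2011 lower, against 597 and 507 without weights. The CD8 covariate called 719 higher and 659 lower, and the share of all genes at an unadjusted p was not counted. In Th1-1 against Th17-17, 12 rose, 3 fell and 6 missed the threshold, with a median of 0.55, where 42.9% of all genes were called.

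Among 7914 genes of at least 5 FPKM on average, those whose log2(FPKM + 1) over the 9 libraries correlated best with each member were described by Pearson's r. The 9 libraries fall into 3 groups, so these values describe the pattern only. Nearest to Ccl4 was Lilrb4a, an inhibitory receptor gene (r = 0.997), at 179 ± 23.9 FPKM in Th17-1, 276 ± 8.99 FPKM in Th1-1 and 15.7 ± 7.14 FPKM in Th17-17, followed by Vcpkmt (0.996) and Lilr4b (0.995). Nearest to Ccl3 were Rexo5 (0.984), Tnfrsf10b (0.976) and Lilr4b (0.976). Ccl5 ran with Alcam, an adhesion molecule gene (0.992), Tmem159 (0.991) and Tnfsf4, which encodes OX40 ligand (0.991). Tnfsf4 was at 15.5 ± 5.01 FPKM in Th17-1, 44.8 ± 6.91 FPKM in Th1-1 and 2.15 ± 0.240 FPKM in Th17-17. Nearest to Cxcl10 was Ifi47, a GTPase gene induced by interferon-gamma (0.989), at 271 ± 25.1 FPKM in Th17-1, 162 ± 22.01 FPKM in Th1-1 and 138 ± 19.8 FPKM in Th17-17, followed by Etv6 (0.960) and Scpep1 (0.959). For Xcl1 they were Strn (0.965), Ankrd44 (0.961) and Smap1 (0.958), and for Ccl1 Fam92a (0.945), Ptgr2 (0.911) and Csgalnact2 (0.908). Strn, a scaffold protein gene, averaged 10.3 ± 0.189 FPKM in Th17-1, 11.6 ± 0.320 FPKM in Th1-1 and 12.6 ± 0.329 FPKM in Th17-17.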

How the data were processed

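Messenger RNA of 9 libraries was analysed. The authors deposited 1 table of FPKM per gene and library, with mm10, HISAT2 and DESeq2 named per the submitters' processing notes. For versions, roles, annotation, strand use and shared reads, nothing is given in the sources used here. Whole reads could not be recovered, since the most frequent ratio in a pair of libraries held for 1.18% to 1.87% of genes below 0.5 FPKM (36 pairs, tolerance 0.01 log2), and depth is unknown. Summed FPKM was 382581 to 405985 per library.

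Genes of at least 1 FPKM in at least 3 libraries (10538 of 22017) were tested on log2(FPKM + 1) with limma 3.58.1 in R 4.3.3 (trend, group as the sole term, all 9 libraries, 6 residual degrees of freedom), two-sided, with Benjamini-Hochberg adjustment over all genes at 0.05. In simulations with independent noise and few changed genes, 84.8% of 66 genes changed 2-fold were recovered in Th17-1 against Th17-17. The shares were 90.4% of 73 in Th17-1 against Th1-1 and 95.8% of 71 in Th1-1 against Th17-17, among 10387, 10386 and 10375 genes. For 1.5-fold changes they were 46.9%, 43.1% and 34.6%, and 4.32%, 4.88% and 6.86% of calls were false. Far more genes were called in the data, so these shares do not give the power there. Figures and summaries used Python 3.11.15, pandas 2.3.3 and matplotlib 3.10.9. Coordinates are from GENCODE M21 on GRCm38 and promoters from RefSeq, with 5 of the 7 genes matched, and proteins were not analysed here. Some genes of the lists are counted but not reported here by name. Named genes are the 7 members, receptors of theirs, up to 4 called genes per list and direction by size, and the 3 genes nearest to each member by Pearson's r. The members and lists were chosen with earlier results of these data known. Alternatives covered the added value, filter, scaling, samples in the fit, weights, robust moderation, threshold, a CD8 covariate, a replicate block and leaving out each library.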

Additional observations from a re-analysis of the deposited data

How the results depend on the processing

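No scaling, added value, robust moderation or CD8 covariate changed a call of the 6 tested chemokine genes, and the 6 calls in Th17-1 against Th17-17 held in each of the 9 fits without 1 library. Depth being unknown, no counting floor can be given, and Ccl1 and Cxcl9 are the values nearest 0. The cause of the changes below was not tested. Lower genes in Th17-1 against Th17-17 numbered 1 with a mean of at least 5 FPKM (Ccl1 is under it), 1 at an adjusted p below 0.01 (Ccl1 -1.70) and 1 in replicates 1 and 2 alone (Ccl1 -1.61). In Th17-1 against Th1-1, higher genes numbered 0 at an adjusted p below 0.01 (Cxcl10 2.31) and 0 to 1 without 1 library. Lower ones numbered 5 with array weights, 0 in replicates 1 and 2 alone and 2 to 4 without 1 library. With array weights Ccl3 was -0.86 and Ccl4 -0.62, and with the 2 groups alone Ccl3 was -0.79 and Ccl4 -0.50, all past the threshold. Ccl5 missed it with no filter, with the 2 groups alone and at 0.01 (each -1.84), and in replicates 1 and 2 alone (-1.92), as did Xcl1 (-1.61) and Ccl1 (-1.77) in those replicates. Without 1 library Ccl3 ran from -0.85 to -0.74, Ccl5 from -2.33 to -1.58 and Cxcl10 from 1.75 to 2.62. In Th1-1 against Th17-17, Cxcl10 was 1.68 with array weights (adjusted p = 0.000189) and 0.75 to 1.61 without 1 library, Xcl1 was -1.03 to -0.39, and higher genes numbered 3 to 4 and lower ones 0 to 1. The position of Ccl3 was 0.791 in replicates 1 and 2 alone and 0.708 to 0.772 without 1 library, and that of Cxcl10 2.09 to 4.49 without 1 library. The Cxcl10 position has no bounded value, since its unit, the difference of Th1-1 and Th17-17, has an interval that covers 0. On the FPKM scale, chosen after seeing the data, the positions were 0.519 for Ccl3, 0.668 for Ccl4 and 0.255 for Ccl5. Cxcr3 in Th17-1 against Th17-17 turned to 0.0283 with the CD8 covariate, 0.05 without Th17-1 replicate 1 and 0.12 without Th17-17 replicate 3, over a range of -0.55 to 0.12 without 1 library. Over all genes, array weights called 1579 higher and 3024 lower in Th17-1 against Th17-17, against 678 and 1000 without weights, 3419 and 2011 in Th17-1 against Th1-1, against 597 and 507, and 2234 and 4882 in Th1-1 against Th17-17, against 1478 and 3048.

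Replicate numbers did not show a correlation over 0.1 in every pair, the mark of pairing used here: deviations of same-numbered libraries correlated at -0.178 to 0.659 across genes. In Th17-1 and Th1-1 the values were -0.178, 0.537 and 0.659 for replicates 1 to 3. Of 18 library and group pairs, 9 went best with their own number, where arbitrary numbers give 6 on average, a hint from the data and not from the design. Cd8a also rose from replicate 1 to 3 in each group, at 17.4, 27.4 and 104 FPKM in Th17-1, 15.3, 19.0 and 117 in Th1-1, and 37.4, 54.9 and 141 in Th17-17. A shared origin of same-numbered libraries was not tested. With a replicate block the 6 genes kept 4 higher and 2 lower in Th17-1 against Th17-17, 1 and 3 in Th17-1 against Th1-1, and 3 and 0 in Th1-1 against Th17-17. Lower genes in Th17-1 against Th1-1 then numbered 4 among the receptors, Xcr1 included (-0.67, adjusted p = 0.0185), and 4 among the activation regulators, with 1 of these higher. In Th17-1 against Th17-17, 1 activation regulator was lower and Runx3 missed the threshold (adjusted p = 0.055).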
